A study of Homo sapiens with 6 samples.

Results

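The genes described here encode the nuclear factor NF-Y and a pair of factors of the SP family. *NFYA*, *NFYB* and *NFYC* encode the 3 subunits of NF-Y, and *SP1* and *SP3* encode zinc finger proteins. Their rows were taken from the deposited count table by gene symbol, 5 genes of 60480 identifiers, and all 5 passed the filter on low counts that left 19778 genes for testing. *NFYA* was chosen for its precise fall in IGF2BP3 KD cells, so its values are given as a description with no test. The other 4 genes were taken because they belong with it by function.

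NF-Y binds the CCAAT box, an element of many promoters. NFYB and NFYC pair through their histone folds, NFYA then joins the pair and reads the CCAAT letters, and the complex needs each kind of subunit to bind DNA. SP1 and SP3 bind GC boxes, GC-rich elements that often lie near CCAAT boxes. SP1 mostly activates transcription, while SP3 can activate or repress it, depending on its isoform and the promoter.

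The libraries were made from poly(A) RNA of OE-19 cells, a line derived from an adenocarcinoma of the esophagogastric junction (AEG). The 3 control libraries are titled shControl, for a control shRNA. Their descriptions read Puro, which the titles and descriptions do not explain. The 3 IGF2BP3 KD libraries came from cells with an shRNA against *IGF2BP3*, an RNA-binding protein that reads m6A and stabilizes mRNAs. The labels give no further treatment or time. They do not say whether the libraries of a group came from separate cultures or carry the same hairpin, so the p-values measure the spread between these libraries, which may be technical.

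Total counts lay between 53453621 and 70026203 per library. The log2 fold change of *IGF2BP3* itself was -3.03 with a standard error of 0.06. The 8 epithelial markers summed to 18600 to 19600 CPM (counts scaled to library size) in control and 20300 to 20800 CPM in KD libraries, mostly from *ERBB2*. Every KD library thus lay above every control library. The 6 leukocyte markers summed to 2510 to 2730 CPM in control and 2540 to 2620 CPM in KD libraries, nearly all from *LYZ*, the secreted enzyme lysozyme. *PTPRC* and *CD3E* of that list stayed under 1 CPM, and *CD68*, a lysosomal protein, was higher in KD cells (35.8 to 51.9 CPM, log2 fold change 0.54). The part of these markers in the values below was not tested. Of the other markers, 5 of the 6 for fibroblasts and all 4 for endothelium stayed under 1 CPM in every library. Levels carry the TMM scaling of edgeR, and each log2 fold change compares IGF2BP3 KD with control cells. A gene is called lower or higher at an adjusted p under 0.05.

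The sequences that these factors read are shown first on the promoters of the SP genes, because those hold both kinds of box. Each run gives the 250 bases before the start of the gene, 5′ to 3′, with the boxes in capitals. A CCAAT box reads CCAAT on one strand and ATTGG on the other. A GC box reads GGGCGG on one strand, and CCGCCC is its form on the other. The *SP1* run lies at chr12:53379926-53380175 on the plus strand and the *SP3* run at chr2:173965374-173965623 on the minus strand (RefSeq, GRCh38.p14).
*SP1*: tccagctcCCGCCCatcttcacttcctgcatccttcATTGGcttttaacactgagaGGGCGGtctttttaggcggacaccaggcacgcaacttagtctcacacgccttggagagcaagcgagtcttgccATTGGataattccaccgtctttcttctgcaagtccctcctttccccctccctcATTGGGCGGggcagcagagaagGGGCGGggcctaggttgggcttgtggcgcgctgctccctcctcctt
*SP3*: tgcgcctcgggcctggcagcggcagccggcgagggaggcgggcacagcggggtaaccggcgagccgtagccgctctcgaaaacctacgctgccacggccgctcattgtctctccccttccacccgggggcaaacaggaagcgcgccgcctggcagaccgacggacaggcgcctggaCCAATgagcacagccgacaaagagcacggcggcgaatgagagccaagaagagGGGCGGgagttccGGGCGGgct

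The *SP1* promoter holds the CCAAT letters 3 times and the GC box letters 4 times, and in one place the last bases of ATTGG begin a GC box. The *SP3* promoter holds CCAAT once and the GC box 2 times. *NFYC* holds CCAAT once and the GC box 2 times in its first listed promoter. *NFYA* has no such letters in the 250 bases before its start and 1 ATTGG after it, and *NFYB* is not in the promoter table. The 2 sites of the NF-Y genes are printed here with the match in capitals, from chr6:41073007-41073023 and chr1:40691594-40691622 on the plus strand (RefSeq, GRCh38.p14).
*NFYA*: ctggagcctctgATTGG
*NFYC*: cgtcgccccttcCCAATtctcgcgagacc

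Of 27305 RefSeq promoters of 300 bases, 35.7% hold CCAAT and 44.6% the GC box on either strand, so a match is common and does not mark a bound site. No binding was measured here.

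*NFYA*, the subunit that reads the CCAAT letters, was lower in IGF2BP3 KD cells. The control libraries held 15835, 15899 and 13747 of its counts, in the order of their replicate numbers, and the IGF2BP3 KD libraries 7346, 8233 and 8302. Scaled to the libraries, it stood at 231, 228 and 235 CPM in control cells and at 136, 133 and 132 CPM in IGF2BP3 KD cells. All 3 KD libraries lay far below the lowest control library. The means were 231 ± 3.25 and 133 ± 2.32 CPM (SD, n = 3), so that the level in KD cells was 57.7% of that in control cells.

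The log2 fold change of *NFYA* was -0.79 (standard error 0.03, 95% interval -0.86 to -0.73). The replicates varied by 1.4% of the mean in control cells and by 1.74% in KD cells. Over the 9857 genes averaging at least 10 CPM the median standard error was 0.058, against 0.030 for *NFYA*. Among all genes tested, *NFYA* ranked 10 of those with lower values by its fold change divided by the standard error, and 655 by the fold change alone. Among the 9857 genes averaging at least 10 CPM it ranked 60 by the fold change alone. These ranks restate the choice of *NFYA* for a precise fall.

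*NFYA* (ENSG00000001167) lies at chr6:41072974-41102403 on the plus strand of hg38, and its canonical transcript of 6209 bases in 10 exons ends in a 3′ UTR of 4993 bases. Its exons share 75 bases with *OARD1* and 480 bases with the lncRNA ENSG00000287678 on the other strand, and 262 bases with the pseudogene *ADCY10P1* on its own strand. The strand setting of the counting is not given in the sources used here, so reads from these bases are uncertain. *OARD1*, which encodes an ADP-ribose hydrolase, was lower by less (log2 fold change -0.17, standard error 0.04). The log2 fold changes were -0.01 (standard error 0.15) for *ADCY10P1* and 0.22 (standard error 0.36) for the antisense lncRNA, listed as *RP1-34B21.7* with at most 52 counts.

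*NFYB* and *NFYC*, the histone-fold subunits, were not called in either direction. *NFYB* (ENSG00000120837, chr12:104117086-104138241, minus strand) had 21.6, 20.9 and 26.3 CPM in control replicates 1, 2 and 3 and 25.3, 27.1 and 26.3 CPM in KD replicates 1, 2 and 3. Control replicate 3 lay with the KD libraries, and the groups overlapped. The log2 fold change was 0.20, with a standard error of 0.09 and a 95% interval of 0.01 to 0.39 (edgeR quasi-likelihood test, adjusted p = 0.149 over all genes tested). Without control replicate 3 it was 0.30 with an adjusted p of 0.0199, and it ranged from 0.13 to 0.30 with each library left out in turn, so whether *NFYB* is called rests on that library.

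*NFYC* (ENSG00000066136, chr1:40691648-40771603, plus strand) had 27.1, 27.8 and 25.5 CPM in control cells and 26.3, 25.7 and 25.1 CPM in KD cells. The values of the groups overlapped. Its log2 fold change was -0.06 with a standard error of 0.06 and a 95% interval of -0.19 to 0.07 (edgeR, adjusted p = 0.577). *NFYC* shares 287 exonic bases with *NFYC-AS1* on the other strand, whose log2 fold change was 0.11 (standard error 0.30).

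The test of the difference between *NFYB* and *NFYC* had little reach. The difference of their log2 CPM was -0.33, -0.41 and 0.04 in control libraries and -0.06, 0.08 and 0.07 in KD libraries. It was higher by 0.26 in KD cells (p = 0.2 from a two-sided exact permutation test, adjusted p = 0.2 over 2 pairs). With 3 libraries per group this test cannot give a p below 0.1.

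*SP1* was not called in either direction. The control libraries held 13085, 12460 and 10547 counts and the KD libraries 9947, 11879 and 11414, which scaled to 191, 179 and 180 CPM in control cells and 184, 191 and 181 CPM in KD cells. The values of the groups lay within the same range. Its log2 fold change of 0.02 had a standard error of 0.04 (edgeR, adjusted p = 0.805). Its 95% interval of -0.06 to 0.10 leaves room for a small change only. *SP1* (ENSG00000185591) lies at chr12:53380176-53416446 on the plus strand and overlaps no other gene.

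*SP3* was lower in IGF2BP3 KD cells. The control libraries held 10604, 10253 and 9031 counts and the KD libraries 7415, 8361 and 8360. In CPM these were 155, 147 and 154 in control cells and 137, 135 and 133 in KD cells, so that every KD library lay below every control library. The log2 fold change was -0.17 (standard error 0.03, 95% interval -0.25 to -0.10, edgeR, adjusted p = 0.00409). It was called lower in each of the 6 fits that left out 1 library, with values from -0.20 to -0.16 and a largest adjusted p of 0.0266. *SP3* (ENSG00000172845) lies at chr2:173880850-173965373 on the minus strand and overlaps no other gene.

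Of the 4 genes that were not chosen on their values, 1 was called lower and 0 were called higher by edgeR (at an unadjusted p under 0.05, 1 was higher, and 0 with DESeq2), where 10.6% of all genes tested were lower and 9.87% were higher. Groups that do not overlap, as in *NFYA* and *SP3*, were seen in 35.8% of all genes tested. The RNA was bulk, so fewer cells of a kind and less RNA per cell cannot be told apart.

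**Figure D1:**
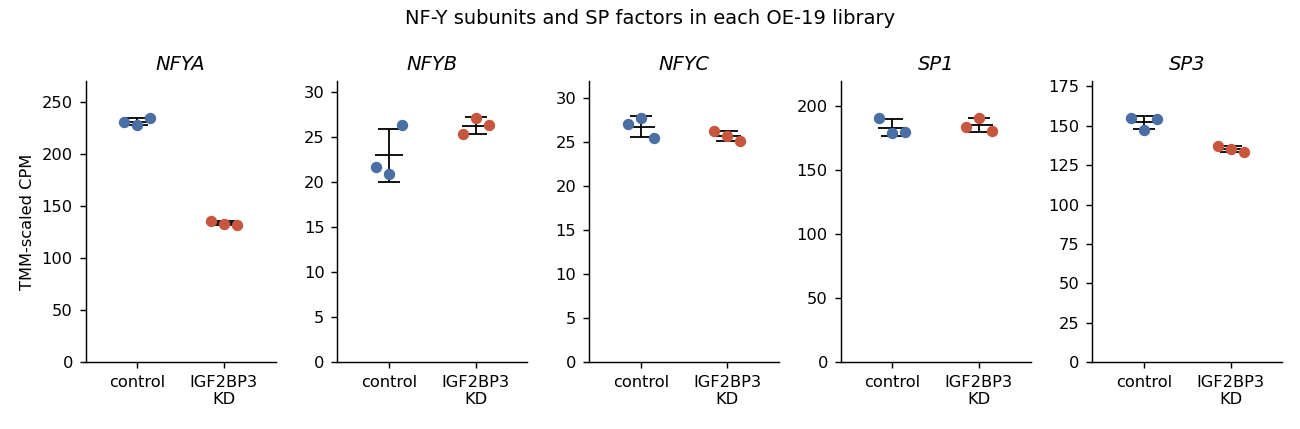
TMM-scaled CPM (y axis, from 0) of each gene in the 3 control and 3 IGF2BP3 KD libraries, with a point per library and the mean and SD in black. The *NFYA* points move from 228 to 235 CPM down to 132 to 136 CPM, the *SP3* points are separated by a smaller step, and the other 3 genes overlap between groups.

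The difference between the 2 SP genes was compared as well. The log2 CPM of *SP1* minus that of *SP3* was 0.30, 0.28 and 0.22 in control libraries and 0.42, 0.51 and 0.45 in KD libraries. Each KD library lay above each control library, and the mean was 0.27 ± 0.04 in control cells and 0.46 ± 0.04 in KD cells (SD, n = 3), 0.19 apart. The two-sided exact permutation test gave p = 0.1, the smallest it can give with 3 libraries per group (adjusted p = 0.2 over 2 pairs), so the difference did not pass the test. Leaving out each library in turn kept the difference between 0.17 and 0.21.

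Levels can be set against each other only per length. With all exons of each gene merged, *NFYA* had 37.3 ± 0.523 CPM per kb in control cells (SD, n = 3). *SP1* followed with 22.7 ± 0.83 and *SP3* with 9.0 ± 0.251. *NFYB* (4.68 ± 0.597) and *NFYC* (4.47 ± 0.199) came last and did not differ from each other beyond their spread. Of these 5 genes, the one that reads the CCAAT box thus had the highest level in control cells.

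In IGF2BP3 KD cells the order at the top changed. *NFYA* had 21.9, 21.4 and 21.2 CPM per kb, and *SP1* had 22.8, 23.7 and 22.4 CPM per kb. The highest *NFYA* library lay below the lowest *SP1* library. *SP3* stood at 7.99 ± 0.141, *NFYB* at 5.36 ± 0.191 and *NFYC* at 4.29 ± 0.106 CPM per kb.

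The length chosen matters for the histone-fold subunits and for *SP3*. With the canonical transcript as the length, which is 1955 bases for *NFYC* against 5990 bases of merged exons, *NFYC* had 13.7 ± 0.608 CPM per kb in control cells. Its libraries then overlapped those of *SP3* at 13.0 ± 0.362 and lay above those of *NFYB* at 6.69 ± 0.854. *NFYA* (37.3) and *SP1* (23.9) stayed in first and second place in control cells under both lengths, and *SP1* stood first in KD cells under both.

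The balance between the NF-Y subunits at the RNA level shifted with *NFYA*. The ratio of *NFYA* to *NFYB* in CPM per kb of merged exons was 8.45, 8.61 and 7.05 in control libraries and 4.25, 3.86 and 3.95 in KD libraries. The ratio of *NFYA* to *NFYC* went from 8.34 ± 0.493 to 5.01 ± 0.0517 (SD, n = 3). As *NFYA* was chosen for its fall, these ratios are a description. With canonical lengths *NFYA* still exceeded both partners in every library, by 2.69 times or more over *NFYB* and 1.62 times or more over *NFYC*. Protein levels were not measured.

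**Figure D2:**
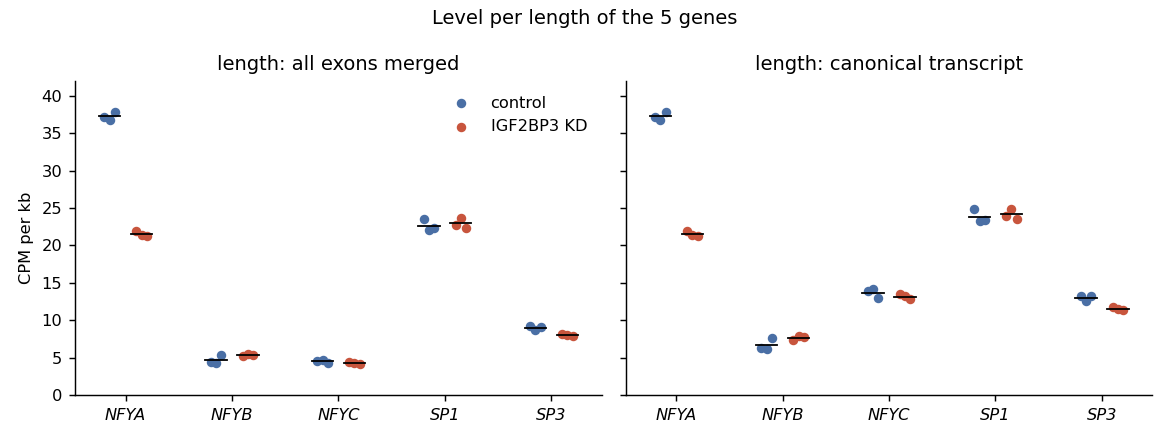
CPM per kb (y axis, from 0) of the 5 genes in each library, with all exons merged as the length on the left and the canonical transcript on the right, and black lines at the group means. *NFYA* drops from 37.3 to 21.5 on either scale and passes below *SP1*, while *NFYC* moves from 4.47 to 13.7 in control cells when the length changes.

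The genes whose pattern was most like that of *NFYA* were sought among 9856 others that averaged at least 10 CPM. The measure was the root mean square difference of log2 CPM from each gene's own control mean over the 6 libraries. *QSER1* was nearest (difference 0.0305, log2 fold change -0.81), followed by *UHRF1BP1* (0.0371, -0.82) and *VOPP1* (0.0387, -0.78). *TOR1AIP1*, an inner nuclear membrane protein, differed by 0.0457 and *ZMAT3*, a zinc finger protein that binds RNA, by 0.0460. Since the measure rests on the step between the groups, these are genes with a step of nearly the same size. *TOR1AIP1* and *ZMAT3* varied more than *NFYA* between libraries, with standard errors of 0.05 and 0.07.

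Their 3′ UTRs were read for 2 words of 7 bases, GATTACT and ACACATC, that an earlier look at these libraries had found in genes with lower and with higher values. *NFYA* holds GATTACT once, at base 1851 of its 3′ UTR, and *SP1* holds ACACATC once, at base 557 of 5206. The sites lie at chr6:41099251-41099277 and chr12:53411787-53411813 on the plus strand of hg38, and the word is in capitals.
*NFYA*: tcagagaataGATTACTaacaatgagg
*SP1*: ccttgttgtgACACATCaagcttttct

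The 3′ UTRs of *NFYB*, *NFYC* and *SP3* hold neither word. Among the 5 genes nearest to *NFYA*, the 3′ UTRs of *QSER1*, *UHRF1BP1* and *VOPP1* hold GATTACT and those of *TOR1AIP1* and *ZMAT3* do not. The word is found in 7.80% of the 13732 tested coding genes with a 3′ UTR of at least 50 bases, and in 71 of the 325 among them at or below the log2 fold change of *NFYA*.

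Of the 1071 genes with GATTACT, 376 (35.1%) were lower, against 14.5% of all these coding genes. Their median log2 fold change was -0.14, and 71 (6.63%) were at or below the value of *NFYA*. In genes with neither word, 2.02% were. Of the 1326 genes with ACACATC (9.66% of these coding genes), 372 (28.1%) were higher, against 13.1% of all, with a median of 0.11. Both words had been picked in these libraries for these directions, so the shares restate that choice. *SP1* lay below that median, and 61.1% of the genes with its word had a value at or above its own. Whether either word has a part in these values was not tested.

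**Figure D3:**
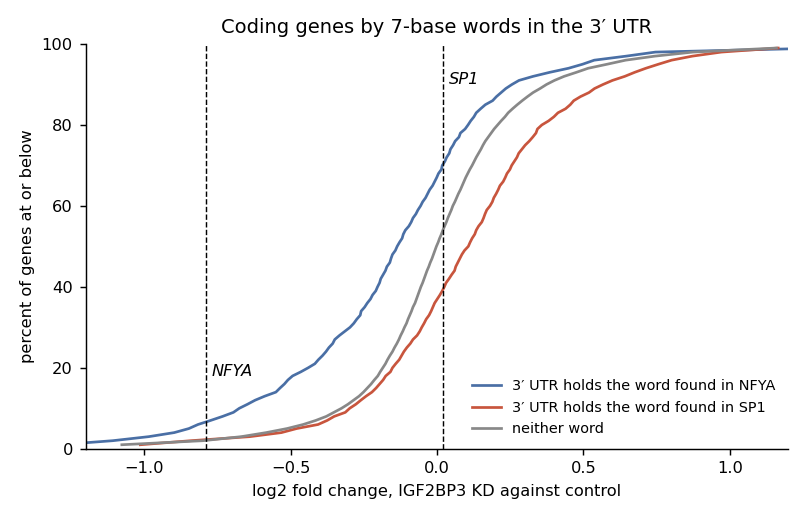
Cumulative share of tested coding genes (y axis, percent) at or below each log2 fold change (x axis), for genes whose 3′ UTR holds the word found in *NFYA*, the word found in *SP1*, or neither. Curves run from percentile 1 to 99, and dashed lines mark *NFYA* at -0.79, in the low tail of its curve, and *SP1* at 0.02, near the middle of genes with neither word.

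Among 24 relatives of the SP factors, the other SP genes and the KLF genes, which carry like zinc fingers, 19 passed the filter (*SP7*, *SP9*, *KLF1*, *KLF14* and *KLF17* did not), 2 were lower and 3 were higher. The shares of 10.5% lower and 15.8% higher stand beside 10.6% and 9.87% of all genes tested. *KLF10*, a gene induced by TGF-beta, went from 62.8 ± 2.82 to 50.5 ± 2.59 CPM (log2 fold change -0.31, standard error 0.06), and *KLF3*, a repressor, from 129 ± 4.43 to 118 ± 2.22 CPM (-0.13, standard error 0.04). The call of *KLF3* was lost without control replicate 2, KD replicate 1 or KD replicate 2, which leaves 1 lower gene.

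*KLF6* rose to a log2 fold change of 0.27 (standard error 0.05), *KLF9* to 0.33 (standard error 0.06) and *KLF12*, a repressor that averaged under 10 CPM, to 0.64 (standard error 0.13). The 3′ UTR of *KLF3* holds GATTACT and that of *KLF12* holds ACACATC 2 times. Of the 14 tested relatives that were not called, 1 holds GATTACT and 1 holds ACACATC. The relatives with high levels, *KLF5* (412 ± 11 CPM in control cells), *KLF13* (245 ± 3.16) and *KLF4* (80.3 ± 2.94), had log2 fold changes of 0.07, 0.08 and 0.00 and were not called. *SP2* and *SP4* were not called either, at -0.08 (95% interval -0.22 to 0.06) and 0.04 (95% interval -0.12 to 0.19).

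The relatives of NFYB and NFYC by their histone fold moved little. Of 8 such genes, all tested, 7 had a log2 fold change below 0, where 9621 of the 19778 genes tested did. By edgeR 1 was lower (12.5%, near the 10.6% of all genes tested). By the same test 0 were higher (0 also at an unadjusted p under 0.05 and with DESeq2), against 9.87% of all. The median was -0.13 against 0.01 over all genes tested. *CHRAC1*, a histone-fold subunit of the CHRAC remodelling complex, went from 72.4 ± 0.473 to 63.4 ± 1.72 CPM (-0.19, standard error 0.04, edgeR, adjusted p = 0.00776). *POLE4* and *POLE3*, which pair as small subunits of DNA polymerase epsilon, had -0.18 and -0.08. *DR1* and *DRAP1*, which pair as the repressor NC2, had -0.06 and -0.14. The TFIID subunits *TAF11*, *TAF13* and *TAF12* had -0.14, -0.12 and 0.07. The lower count became 2 without control replicate 1, through *POLE4*, or without KD replicate 2, through *TAF11*.

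**Figure D4:**
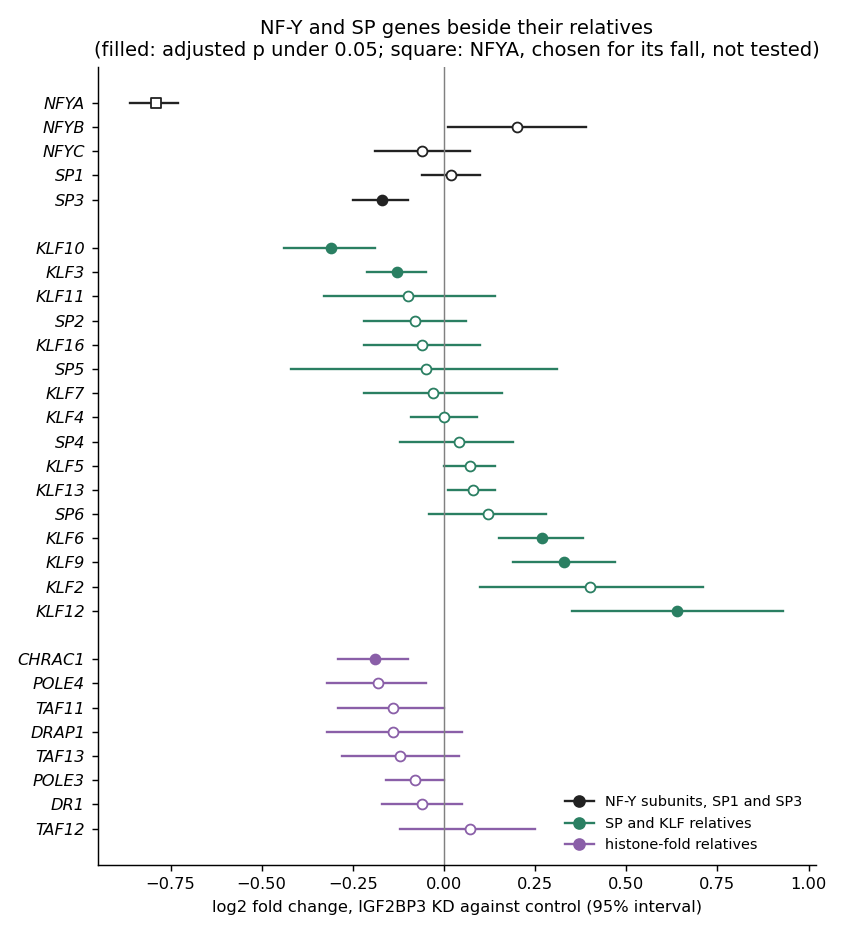
Log2 fold change with its 95% interval (x axis) of the NF-Y and SP genes, of the SP and KLF relatives with at least 1 CPM in a group, and of the histone-fold relatives, with filled points for genes called at an adjusted p under 0.05. *NFYA*, the square at -0.79, was chosen for its fall and not tested, and no relative drawn lies below -0.31.

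Partners and cofactors of these factors were listed as well. Of 25 genes, all tested, 5 were lower (20.0%, against 10.6% of all genes tested) and 3 were higher (12%, against 9.87%), with a median of -0.01. Each of the 25 averaged at least 11.2 CPM. Among 9502 coding genes that averaged at least 10 CPM and had a promoter read from hg38, 19.7% were lower and 16.6% higher. Beside genes of such levels the lower share of the partners was thus not raised. Lower were, among others, *XBP1*, a factor of the unfolded protein response, at -0.32 (standard error 0.03), *HDAC2*, a histone deacetylase, at -0.38 (standard error 0.05), *HCFC1*, a chromatin cofactor, at -0.19 (standard error 0.04), and *EP300*, a histone acetyltransferase, at -0.15 (standard error 0.03). *KAT2B*, another acetyltransferase, rose by 0.30 (standard error 0.07), *RFXANK*, a subunit of the RFX complex that acts with NF-Y at MHC class II promoters, by 0.25 (standard error 0.06), and *ATF6* by 0.20 (standard error 0.05). *EP300* holds GATTACT in its 3′ UTR, and *HDAC2* holds ACACATC. Of the 17 partners that were not called, 2 hold GATTACT and 2 hold ACACATC. The higher count fell to 1 without control replicate 3, through *ATF6* and *KAT2B*. The call of *ATF6* was also lost without KD replicate 3, and that of *RFXANK* without KD replicate 2.

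The list of genes reported to use a CCAAT box had 42 members, of which 37 were tested, 16 were lower and 4 were higher. The lower share was 43.2%, against 10.6% of all genes tested, and the higher share 10.8%, against 9.87%. The median log2 fold change was -0.14, against 0.01. Each tested member averaged at least 10.1 CPM. Of the coding genes that averaged at least 10 CPM and had a promoter read from hg38, 19.7% were lower and 16.6% higher. The list was written with earlier results of these libraries known, and many of its genes serve the cell cycle, so the count is not independent evidence about NF-Y. Of the 29 tested members with a promoter in the table, 26 hold CCAAT and 26 hold the GC box. Of the 11119 tested coding genes with a promoter there, 4058 hold CCAAT and 7577 the GC box. None of the 16 lower genes holds GATTACT or ACACATC in the 3′ UTR, and 84.1% of the tested coding genes with a 3′ UTR hold neither word.

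Grouped by role after the values were seen, all 6 genes of G1/S and DNA synthesis were lower, with a median of -0.41. The lower shares by role stand beside the 19.7% of coding genes that averaged at least 10 CPM. *E2F1*, a factor that drives S-phase genes, had -0.58 (standard error 0.06). *RRM2*, a subunit of ribonucleotide reductase, went from 392 ± 14 to 292 ± 6.68 CPM (-0.43, standard error 0.03), and *PCNA*, the sliding clamp, from 253 ± 9.83 to 192 ± 1.16 CPM (-0.39, standard error 0.03). Of 11 genes of G2 and mitosis, 2 were lower (18.2%, near that share), *CCNB1* at -0.30 and *CDC25B* at -0.24, both named after their values were seen. Their median was -0.06. Among the 9 that were not called, *TOP2A* had -0.05 (95% interval -0.11 to 0.01) and *CCNA2* 0.02 (95% interval -0.05 to 0.08). These 2 were also named after their values were seen. The difference between the roles was not tested.

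Of the 7 genes of sterol and fatty acid synthesis on this list, 4 were lower (57.1%), with a median of -0.22 and *FASN*, the fatty acid synthase, at -0.25. Of 7 genes of the endoplasmic reticulum, 2 were lower (28.6%) and 1 was higher (14.3%), against 19.7% and 16.6% of coding genes averaging at least 10 CPM. The lower genes were *XBP1*, which is also counted among the partners, at -0.32 and *PDIA4* at -0.15 (standard error 0.03). Their promoters hold 2 and 3 CCAAT matches. Of those not called, *HSPA5*, the chaperone BiP, whose promoter holds 5 CCAAT matches, had 0.05 (95% interval -0.00 to 0.11). *HSP90B1*, also with 5 matches, had 0.01 (95% interval -0.06 to 0.07). *CALR*, the chaperone calreticulin, rose by 0.10 (standard error 0.02). Of the other higher genes, *COL1A1* had 0.50, *TGFBR2* 0.18 and *FTH1*, the ferritin heavy chain, 0.12. *COL1A1* is also a fibroblast marker. The 6 fibroblast markers summed to 21.2 to 24.5 CPM in control and 29.9 to 34.4 CPM in KD libraries, and the other 5 were under 1 CPM throughout. The count of higher genes fell to 2 without control replicate 3 or KD replicate 3, through *CALR* and *FTH1*. The call of *FTH1* was also lost without control replicate 1 or KD replicate 1, and that of *CALR* without KD replicate 2.

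The list of genes reported to use GC boxes had 30 members, of which 29 were tested, 11 were lower and 5 were higher, with a median of -0.01. The shares were 37.9% lower and 17.2% higher, against 10.6% and 9.87% of all genes tested. Of the coding genes that averaged at least 10 CPM and had a promoter read from hg38, 19.7% were lower and 16.6% higher. The higher share of the list was thus near that of such genes, though its lowest tested member averaged 0.651 CPM. This list too was written with earlier results known. *THBS1*, thrombospondin 1, had -0.76 (standard error 0.07), and *VEGFA*, a growth factor of blood vessels, -0.36 (standard error 0.03). *APP*, the amyloid precursor protein, had 0.88 (standard error 0.02), *EGFR* 0.73 (standard error 0.05), and *PCYT1A*, an enzyme of phosphatidylcholine synthesis, 0.21 (standard error 0.04). The 3′ UTRs of *APP* and *EGFR* hold ACACATC, as that of *SP1* does. Of the 11 lower genes, 3 hold GATTACT and 1 holds ACACATC. Of the 13 that were not called, 2 hold GATTACT and 1 holds ACACATC. *TGFBR1*, named after its values were seen, holds both words and had -0.65 (standard error 0.12). *TK1*, *E2F1*, *FASN* and *TGFBR2* stand on both target lists.

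**Figure D5:**
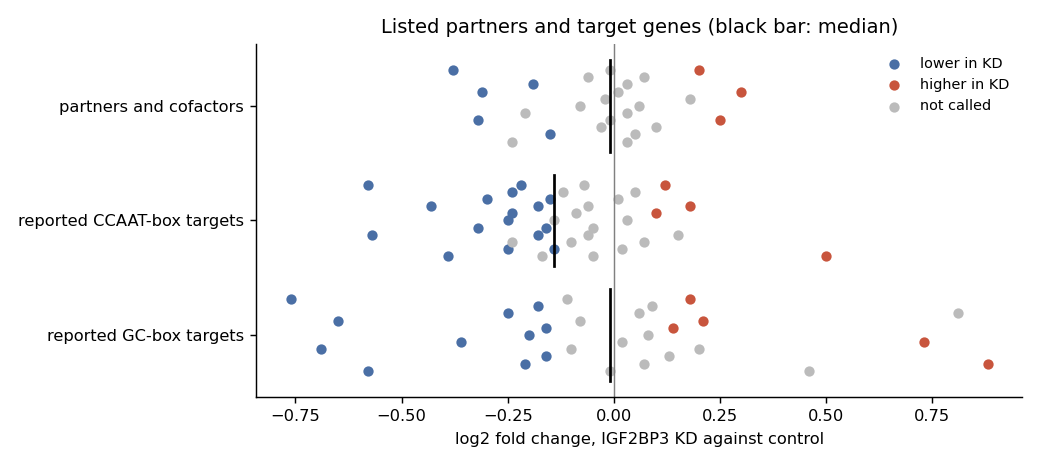
Log2 fold change (x axis) of each tested gene on the lists of partners and cofactors, reported CCAAT-box targets and reported GC-box targets, coloured by call, with vertical jitter for sight only and a black bar at the median. The median lies at -0.14 for the CCAAT-box list and at -0.01 for the other lists.

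Coding genes at large were then divided by these letters in their promoters. The promoter table covers 79.5% of the tested coding genes, under the 80% set for such a comparison, which is therefore void. Windows of the same 300 bases around the start of the canonical transcript, read from hg38, cover 13970 of the 13991 tested coding genes. In these, 16.1% of the 4994 genes with CCAAT were lower and 12.1% higher, and 13.4% of the 8976 genes without it were lower and 13.5% higher. All genes with a window were lower in 14.3% and higher in 13.0%. The shares by CCAAT thus lay within a few percent of all genes with a window.

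For the GC box, 15% of the 10006 genes with it were lower and 14.0% higher, against 12.7% and 10.5% of the 3964 genes without it. Genes with both kinds of letters were lower in 17.1% and higher in 12.7%, and genes with neither in 12.1% and 10.4%. Among genes that averaged at least 10 CPM, 21.8% of those with CCAAT and 18.5% of those without were lower, while for the GC box the order turned, with 19.3% lower of those with it and 21.0% of those without.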

How the data were processed

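Poly(A) RNA of OE-19 cells was sequenced by the authors with paired reads of 150 bases, in 3 libraries per group, 6 in all. The labels and the paper's methods name fastp, hisat2 on hg38 and featureCounts. Versions, annotation release and strand setting are not given in the sources used here. The deposited values are raw counts per gene, without normalization. The first of each repeated identifier was kept, which left out 132 entries of 44 identifiers.

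Libraries were scaled by TMM, low counts were removed with filterByExpr (minimum count 10, minimum total 15), and 19778 genes were tested with edgeR 4.0.16 (R 4.3.3, glmQLFit and glmQLFTest, group only), with Benjamini-Hochberg adjustment over all of them and a threshold of 0.05. Standard errors are the log2 fold change divided by the root of the F statistic, and intervals use its degrees of freedom. The code was tested on simulated data. Log2 CPM used a prior count of 2. The exact permutation test was two-sided. Gene models, 3′ UTRs and lengths came from GENCODE v44 on hg38, which hold 99.97% of the genes tested, and 4 of the 5 genes were in the RefSeq promoter table, from which the first promoter per symbol was read. Motifs were counted on both strands.

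The genes described and all lists were chosen with earlier results of these data known. Named by rule are the 5 genes, up to 4 called genes per list and direction with the smallest p (1 of these is not reported here), the histone-fold relatives, the 6 relatives with the highest CPM, overlapping neighbours and the 5 genes nearest to *NFYA*. *SP2*, *SP4*, *TOP2A*, *CCNA2*, *CCNB1*, *CDC25B*, *HSPA5*, *HSP90B1*, *PDIA4*, *FASN*, *TK1*, *TGFBR1*, *CD68* and *LYZ* were named after their values were seen. The alternatives were DESeq2 1.42.0, RLE scaling, other filters, each library left out, a block for the replicate number, a threshold of 0.01, and other promoter settings. Those that use 10 CPM, hg38 windows or canonical lengths were added after the data were seen. Between libraries of a group, chi-square per degree of freedom was at least 9.86, so none duplicates another.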

Additional observations from a re-analysis of the deposited data

How the results depend on the processing

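*NFYA* kept its log2 fold change between -0.81 and -0.79 with each library left out, and had -0.80 with DESeq2. No setting tried moved the call of *NFYC*, *SP1* or *SP3*. *NFYB* ranged from 0.13 to 0.30 with each library left out and was called in 1 of 6 such fits, the one without control replicate 3. At an adjusted p under 0.01, 1314 genes were lower and 1098 higher, 1 SP or KLF relative was lower, 0 partners were higher and 2 CCAAT-box targets were higher. The lower histone-fold relatives were 2 with DESeq2 and 2 with at least 10 counts in every library, and without a low-count filter 2 CCAAT-box targets were higher. With each library left out, the counts ranged from 1 to 2 for lower SP and KLF relatives, 1 to 2 for lower histone-fold relatives, 1 to 4 for higher partners and 2 to 4 for higher CCAAT-box targets. The causes were not tested. Of the settings tried on the other named genes, 16 ended a call, 4 made one and 0 reversed it.

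The replicate numbers share only a number: correlations of same-numbered libraries' deviations from their group means were -0.02, -0.04 and 0.00. With the replicate number as a block, 2026 genes were lower and 1875 higher, and *SP3* had -0.17. *NFYB* and *NFYC* had the lowest counts of the 5 genes, between 1364 and 1935 in a library, and the control libraries of *NFYB* varied by 12.8% of their mean. With 3 libraries per group the exact tests cannot pass the threshold.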
